A study of Homo sapiens with 9 samples.

Results

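The nuclear-encoded mRNAs of the respiratory chain were followed in nuclear and cytoplasmic RNA of a human embryonic kidney line. They were the protein-coding genes on nuclear chromosomes with symbols that start with NDUFA, NDUFB, NDUFC, NDUFS, NDUFV, UQCR, COX4 to COX8 or ATP5, without the NDUFAF assembly factors. The rule found 86 genes among 19494 protein-coding genes and 56347 genes of all kinds. By complex these were 38 genes of complex I, 9 of complex III, 19 of complex IV and 20 of complex V, with NDUFA4 and NDUFA4L2 counted under complex IV. A gene was tested where 3 or more samples reached 10 estimated counts, which held for 78 of them and for 16181 genes in all. The 8 below the filter were NDUFS4, UQCRHL, COX4I2, COX6A2, COX7A1, COX7B2, COX8C and ATP5MGL.

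The respiratory chain sits in the inner mitochondrial membrane. Complex I takes electrons from NADH, complex III passes them from ubiquinol to cytochrome c, and complex IV hands them to oxygen, while complex V, the ATP synthase, uses the proton gradient that the first 3 build. Most subunits are encoded in the nucleus, exported as short mRNAs and translated in the cytosol, and 13 further subunits are encoded and translated inside mitochondria. Promoters of nuclear-encoded subunits are known for sites of NRF1, of YY1 and of ETS factors such as GABPA.

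The study asked how loss of WTAP and KIAA1429 (Virilizer, gene symbol VIRMA), regulatory subunits of the m6A methylase complex, alters the nuclear and cytoplasmic distribution of mRNAs. HEK293 cells, as labelled (293 T in the methods), received a control siRNA or siRNAs against both proteins together, and poly(A) RNA of each fraction was sequenced. The groups were control nuclear (n = 3), WTAP/KIAA1429 RNAi nuclear (n = 3), control cytoplasmic (1 sample, replicate 2) and RNAi cytoplasmic (n = 2, replicates 1 and 2). No source used here says that replicates were separate cultures, so p-values measure only the spread between these samples, and the spread of the single control cytoplasmic sample was taken from the other groups. Values are CPM, the estimated counts scaled to a common library size by TMM, unless named as TPM, which is also divided by length. A gene was called at an adjusted p (Benjamini-Hochberg, edgeR's quasi-likelihood test over all genes tested) under 0.1 with a log2 fold change beyond 0.5.

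Samples held 11627403 to 19036141 estimated counts. WTAP stood at 23 to 27.6 CPM in control nuclei and 12.2 to 15.5 after RNAi, and at 37.5 against 10.8 and 11.9 in cytoplasm. VIRMA stood at 13.2 to 19.8 against 5.56 to 9.18 in nuclei and 17.4 against 4.21 and 4.05 in cytoplasm. The nuclear RNA NEAT1 was at 121 to 211 CPM in nuclear samples and 9.97 to 13 in cytoplasmic ones, and MALAT1 at 88.3 to 199 against 5.47 to 13.8. Of the markers of the line, VIM, NEFM, KRT8, KRT18, PAX2 and CDH2 were present in every sample; PTPRC, ALB and HBB, which mark other cells, were at or near 0. Mitochondrially encoded RNA took 18.5% to 30.7% of the counts in nuclear samples and 14.8% to 19.8% in cytoplasmic ones. It had been chosen as a marker of the cytoplasmic fraction and did not mark it here. How far the nuclear samples held cytoplasmic material was not tested. Control nuclear replicate 1 had the largest such share and was the lowest of its group for 60 of the 78 members.

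GGACT is a common form of the m6A consensus. The most abundant transcript of the tested members held a median of 1 GGACT against 2 over all genes tested, and 42.3% of members held none against 21.3%. Per kilobase the medians were 0.704 and 0.942. Member transcripts were short, with a median of 678.5 nt against 1850 nt and a last exon of 221.5 nt against 789 nt, and their median GC content was 50.6% against 51.05%. Transcript lengths came from the deposited files. Last exons, sequences and the lengths behind the values per kilobase came from GENCODE version 44. There 43.6% of the members' transcripts kept the deposited length. UQCRFS1 (the Rieske iron-sulfur protein of complex III), NDUFV1 (the NADH-binding subunit of complex I) and NDUFS1 (the largest complex I subunit) are shown because their RNAi values are described below; capitals mark GGACT. The NDUFV1 site at transcript position 1236 lies across the junction into exon 9, so its genomic span holds an intron. All sites of NDUFV1 and NDUFS1 lie in the coding sequence, and both of UQCRFS1 lie in the 3′ UTR (GRCh37).
UQCRFS1, chr19:29698435-29698455, minus strand, exon 2 of 2: agagacttGGACTcaagtcat
UQCRFS1, chr19:29697989-29698009, minus strand, exon 2 of 2: tatttaccGGACTtggtaaga
NDUFV1, chr11:67378963-67378983, plus strand, exon 7 of 10: gtgctgatGGACTtcgatgcg
NDUFV1, chr11:67379446-67379607, plus strand, exon 9 of 10: gagggtgtGGACTggatgaac
NDUFS1, chr2:207012507-207012527, minus strand, exon 5 of 18: cacccattGGACTgtcctatt
NDUFS1, chr2:207007448-207007468, minus strand, exon 10 of 18: aatagagtGGACTctgacacc

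RefSeq promoter windows (250 bases before to 50 after a start, GRCh38.p14) were at hand for 68 of the 86 members. They were searched on both strands for an NRF1 motif (GCGCATGC or GCATGCGC, each the reverse complement of the other), a YY1 motif (AAGATGGC) and an ETS motif (CCGGAAG). The NRF1 motif was in the windows of 12 members (17.6%) against 3.68% of all genes in the table, the YY1 motif in 11 (16.2%) against 3.52%, and the ETS motif in 19 (27.9%) against 12.2%. Among genes tested here these shares were 6.11%, 5.92% and 21.0%. COX6A1, higher in the nucleus under both siRNAs below, and ATP5PB, lower there under both, are shown with motifs in capitals. COX6A1 held 2 NRF1 motifs and 1 ETS motif, and ATP5PB held 1 YY1 motif; such letters are a description and not a measured site.
COX6A1, chr12:120437863-120438162, plus strand: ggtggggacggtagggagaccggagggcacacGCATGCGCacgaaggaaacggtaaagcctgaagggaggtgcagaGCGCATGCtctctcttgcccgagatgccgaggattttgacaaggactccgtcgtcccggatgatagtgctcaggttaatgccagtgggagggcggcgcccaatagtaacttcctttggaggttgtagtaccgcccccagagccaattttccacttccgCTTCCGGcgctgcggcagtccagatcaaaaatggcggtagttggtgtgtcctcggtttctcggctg
ATP5PB, chr1:111449214-111449513, plus strand: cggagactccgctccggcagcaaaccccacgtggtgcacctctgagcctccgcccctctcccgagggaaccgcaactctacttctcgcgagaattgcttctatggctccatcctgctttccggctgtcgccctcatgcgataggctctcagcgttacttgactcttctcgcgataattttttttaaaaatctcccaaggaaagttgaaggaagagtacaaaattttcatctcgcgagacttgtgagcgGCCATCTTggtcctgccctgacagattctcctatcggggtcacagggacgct

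Members spanned the whole range of levels. By TPM, averaged over the 9 samples, COX8A was highest at 2498, followed by COX6A1 at 1471 and COX5A at 1215, all subunits of complex IV, then NDUFB10 of complex I at 925 and ATP5MC1, a gene of the ATP synthase c ring, at 673. The lowest that passed the filter were NDUFA5 at 1.62 TPM and NDUFA6 at 1.63. Paralogs known for restricted expression were at the floor: COX4I2, COX6A2 and COX7B2 had no count in any sample, COX7A1 averaged 0.588 TPM and COX8C 0.026. The ubiquitous counterparts COX4I1, COX6A1 and COX8A were all present. The contrast was weaker for the other pairs: COX7A2, a paralog of COX7A1, averaged only 10.7 TPM, and COX7B, the paralog of COX7B2, 5.29 TPM. COX7A2L averaged 40.6 TPM. COX6B1 averaged 159 TPM and its testis-type paralog COX6B2 3.52, NDUFA4 50.2 and NDUFA4L2 5.57, and UQCRH 131 against 0.0617 for the copy UQCRHL. Of the c-ring genes, whose mature proteins are identical, ATP5MC1 (673 TPM) and ATP5MC3 (524 TPM) stood above ATP5MC2 (48.4 TPM). NDUFS4, a complex I subunit, was assigned 1.18 TPM, which was low beside its partners. The most abundant transcript of NDUFS4 and of NDUFA5 was annotated nonsense_mediated_decay and not protein-coding. Counts on transcripts matched to no gene are not in these levels, so such low levels are uncertain. The TPM level of the 78 members ran with GC content (Spearman 0.42, against 0.28 over all genes tested) and little with length (-0.12); genes share libraries, and no test is attached.

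Together the members held 0.709% to 1.06% of the counts in nuclear samples, 1.03% in the control cytoplasmic sample and 0.841% and 0.936% in the RNAi cytoplasmic samples. In summed CPM the control nuclei were at 7506, 9365 and 8368 and the RNAi nuclei at 7075, 7536 and 8015. These ranges overlapped. The control cytoplasm was at 9929 and the RNAi cytoplasms were at 9257 and 11282, on both sides of it. In bulk RNA, fewer cells and less RNA per cell cannot be told apart. Complex IV held 40.6% to 43.4% of the summed member TPM in nuclear samples and 26.3% to 32.2% in cytoplasmic ones. COX6A1 by itself held 10.8% to 14.0% in nuclei and 3.22% to 4.04% in cytoplasm, without overlap.

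The distribution between fractions was compared first within each siRNA, which shows where each mRNA stood. Respiratory chain mRNAs were called lower in the nucleus more often than higher. In control cells 28 of the 78 members (35.9%) were lower in the nucleus, where 22.7% of all genes tested were, and 3 (3.85%) were higher, where 28.0% were. After RNAi 36 members (46.2%) were lower, against 24.9% of all genes, and 5 (6.41%) were higher, against 32.9%. The median log2 fold change of nucleus over cytoplasm was -0.35 in control and -0.51 after RNAi, with all genes at 0.04 in both. Both comparisons have their own nuclear and cytoplasmic samples but share the same fit, scaling and estimate of the spread. In both, 23 members were lower. How many of all genes tested were lower in both was not counted.

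The scaling moved these values. With library size as the only scaling the median of all genes in the RNAi samples rose by more than 0.1, to 0.30, and 14 members stayed below the threshold in place of 36. Relative to the median of all genes the members stayed lower under every alternative tried, by -0.33 to -1.24 after RNAi and by -0.18 to -0.84 in control. Without RNAi cytoplasmic replicate 2 there were 24 lower members, and without RNAi cytoplasmic replicate 1 there were 45.

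**Figure D1:**
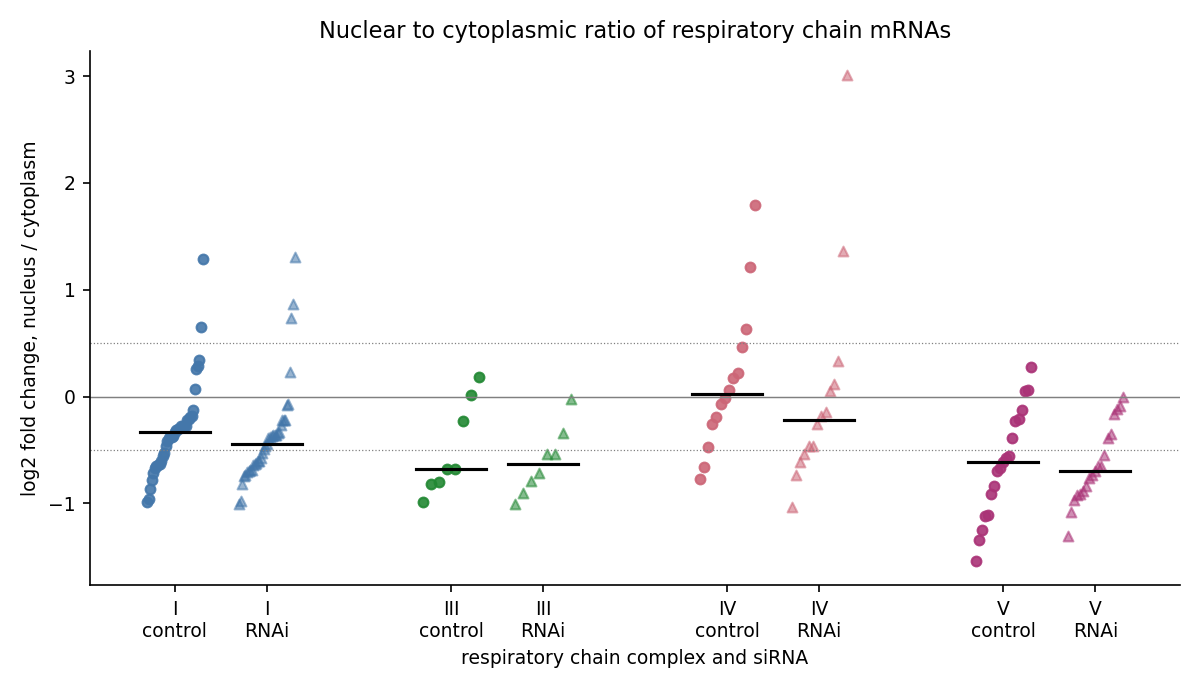
Each point is 1 of the 78 tested members, placed by complex (I, III, IV, V) and siRNA (circles control, triangles RNAi), with the log2 fold change of nucleus over cytoplasm on the y axis. Black bars are medians and dotted lines mark 0.5 and -0.5; complexes III (medians -0.68 and -0.63) and V (-0.61 and -0.70) sit lowest, and COX7A2 after RNAi is the point at 3.01.

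Complex V, the ATP synthase, had 12 of 19 tested members lower in the nucleus in control cells and 13 after RNAi, and none higher. ATP5PF, coupling factor 6 of the peripheral stalk, was at 56.9, 73.7 and 65.6 CPM in control nuclei and 190 in control cytoplasm. After RNAi it was at 57.1, 62.7 and 63.9 in nuclei and 147 and 158 in cytoplasm. Every nuclear sample was below every cytoplasmic one. The log2 fold change was -1.54 (SE 0.14, adjusted p = 3.71e-05) in control and -1.31 (SE 0.12, adjusted p = 1.2e-05) after RNAi. ATP5PB, the b subunit of the same stalk, followed with 44.1 to 45.3 CPM against 113 in control (log2 fold change -1.34, SE 0.12) and 36.7 to 43.8 against 80.1 and 74.0 after RNAi (-0.92, SE 0.10). The stalk subunit ATP5PO fell less far, at -0.58 and -0.76. Among the catalytic head genes, ATP5F1A (alpha) was at -0.67 in control and -0.84 after RNAi, ATP5F1B (beta) at -0.61 and -0.70, ATP5F1C (gamma) at -1.12 and -0.88, and ATP5F1D (delta) at -0.70 and -1.08, and all were called in both. The c-ring genes did not move together: ATP5MC3 was called lower in both (-1.11 and -0.65), while ATP5MC1 and ATP5MC2 were called in neither.

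Complex III had 5 of 8 tested members lower in the nucleus in control and 6 after RNAi. UQCRC2, a core subunit, was at -0.80 (SE 0.13, adjusted p = 0.000651) and -0.72 (SE 0.10, adjusted p = 0.000212). UQCRH, the hinge protein, was at -0.99 and -1.01. UQCRC1, the other core subunit, was called only after RNAi, at -0.54; the difference between the siRNAs for it was not called. Complex I had 10 of 37 tested members lower in control and 13 after RNAi. NDUFV2, an iron-sulfur subunit of the NADH module, was at 17.3, 18.0 and 15.5 CPM in control nuclei against 33.1 in control cytoplasm, and at 11.9, 11.4 and 13.6 against 26 and 22.5 after RNAi. Its nuclear samples were all below its cytoplasmic ones, with log2 fold changes of -0.96 and -0.98. NDUFA3, an accessory subunit, was at -0.99 and -1.01. Of the core subunits, NDUFS7 and NDUFS8 were called lower after RNAi (-0.69 and -0.74) and NDUFS1 in control (-0.53), while NDUFS3 and NDUFV1 were called in neither. Complex IV was mixed, with 1 of 14 tested members lower and 2 higher in control and 4 lower and 2 higher after RNAi, and medians of 0.03 and -0.22. Its lower member in both was COX7A2L, the supercomplex factor, at -0.66 and -1.03.

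COX6A1 and NDUFB9 were the members called higher in the nucleus under both siRNAs. COX6A1, the ubiquitous form of subunit VIa of complex IV (chromosome 12, 120875893 to 120878540, plus strand, GRCh37), was at 734, 731 and 773 CPM in control nuclei and 215 in control cytoplasm. After RNAi it was at 632, 591 and 731 in nuclei and 248 and 260 in cytoplasm. Nuclear and cytoplasmic samples were far apart. The log2 fold change was 1.79 (SE 0.15, adjusted p = 2.57e-05) in control and 1.36 (SE 0.11, adjusted p = 7.41e-06) after RNAi. The excess lay in its protein-coding transcript, at 1591 to 2227 TPM in nuclei and 500 to 583 TPM in cytoplasm, and its transcripts annotated retained_intron reached 10.6 TPM at most. NDUFB9, an accessory subunit of complex I, was at 143, 167 and 156 CPM in control nuclei against 63.5 in cytoplasm, and at 112, 117 and 124 against 58.6 and 70.2 after RNAi. Here too no nuclear sample reached down to a cytoplasmic one, and the log2 fold changes were 1.29 (SE 0.15) and 0.87 (SE 0.12). COX8A (subunit VIII) was called higher in control only, at 0.63. NDUFB1 (1.31), NDUFA5 (0.74) and COX7A2 (3.01) were called higher after RNAi only, at low counts: the RNAi cytoplasmic samples were at 2.41 and 2.51 CPM for NDUFB1, 0.857 and 1.86 for NDUFA5, and 0.0 and 0.656 for COX7A2. Of the reads on COX7A2 and its named pseudogenes together, 5.8% were on the pseudogenes, and for COX6C 7.01%, so both levels are uncertain.

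**Figure D2:**
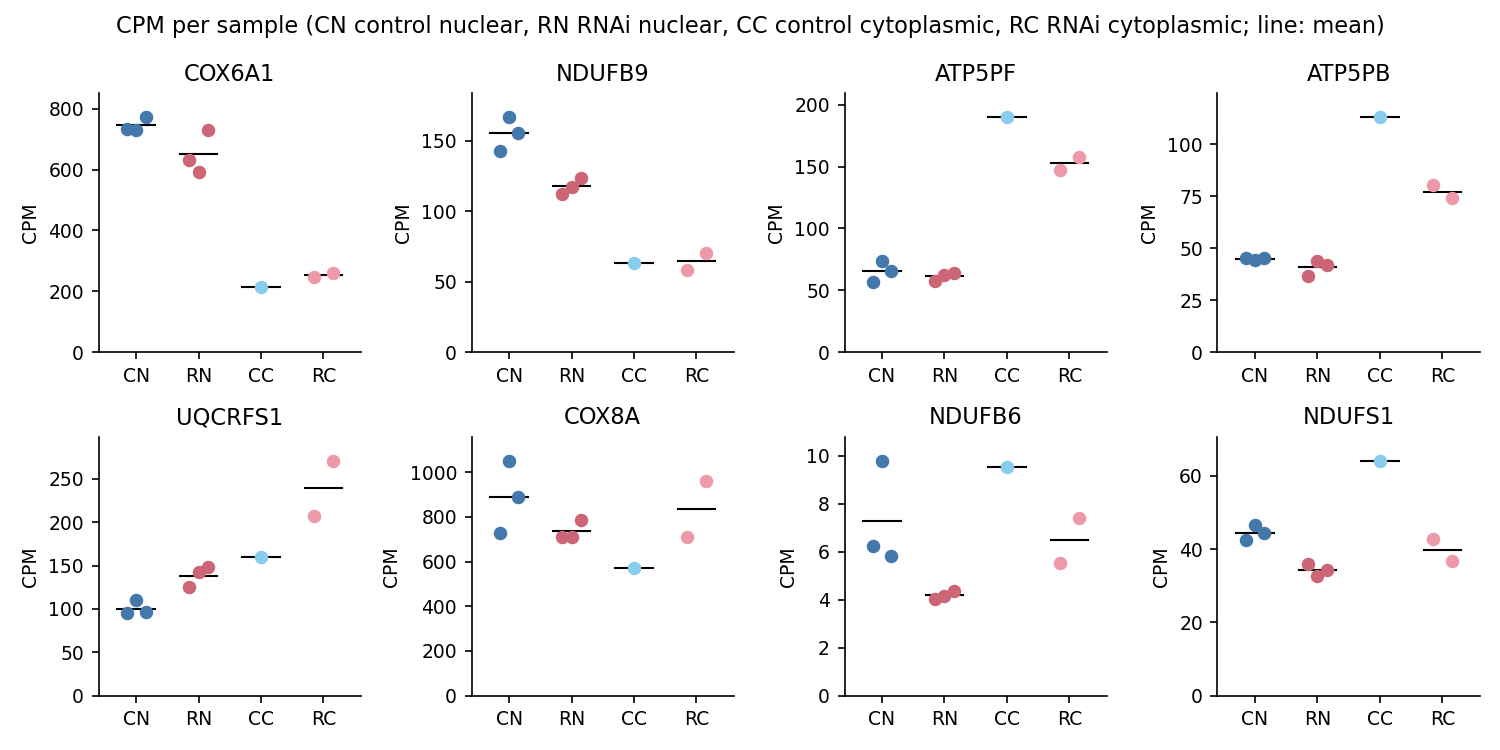
CPM in each of the 9 samples for 8 members, with the y axis from 0, 1 point per sample and a line at the group mean. The 6 nuclear samples of COX6A1 lie at 591 or above and its 3 cytoplasmic samples at 260 or below, while ATP5PF and ATP5PB have the reverse order.

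Other gene groups gave a measure of how common this distribution was. Mitochondrial ribosomal protein mRNAs were lower in the nucleus for 38 of 77 in control and 46 after RNAi, with none higher and medians of -0.54 and -0.59. Cytosolic ribosomal protein mRNAs had 47 and 65 of 79 lower and 4 and 3 higher (medians -0.67 and -0.84). Proteasome mRNAs had 16 and 15 of 33 lower and 0 and 2 higher (-0.51 and -0.48), and TCA cycle mRNAs 6 and 8 of 13 lower and 1 and 0 higher (-0.28 and -0.57). Mitochondrial import genes had 11 and 15 of 24 lower and 0 higher under both siRNAs (-0.54 and -0.60). Respiratory chain assembly factors had 15 and 16 of 48 lower and 3 and 9 higher (-0.38 and -0.37). Of complex II, the succinate dehydrogenase, SDHB, SDHC and SDHD were lower under both siRNAs and SDHA was higher in control (0.69). CYCS, the cytochrome c that links complexes III and IV, was at -1.35 and -0.81. Of the 13 mitochondrially encoded mRNAs 4 (MT-CO1, MT-CO3, MT-CYB and MT-ND6) were called higher in control, where 28.0% of all genes were, and none was called lower, with a median of 0.42 and MT-ND2, MT-ND3 and MT-ND4L below 0. After RNAi 2 were higher and 2 lower.

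RNAi and control were then compared within the nucleus. Lower calls were near the share of all genes: 2 of 78 members (2.56%) were called lower, where 2.42% of all genes tested were. None was called higher, where 2.47% were. A member without a call was not shown to be unchanged. The median log2 fold change of the members was -0.17 (60 of 78 below 0) against 0 over all genes (8110 of 16181 below 0). Members share libraries, so they are not replicates of a shift. Their median deviation from each gene's mean over samples was -0.26, 0.16 and -0.08 in control nuclei, on the log2 scale. In RNAi nuclei it was -0.32, -0.21 and -0.09, so the groups overlapped. The pooled SD of this median between replicates was 0.168, about the size of the shift. In the edgeR fit 18 of the 78 members had an unadjusted p under 0.05, as did 3369 of the 16181 genes tested. DESeq2's Wald test also called 2 lower (NDUFA4 and NDUFB6) and 0 higher. For 15 members (19.2%) every RNAi sample was below every control sample, against 13.8% of all genes, and for 4 (5.13%) every RNAi sample was above, against 14.3%. Medians by complex were -0.18 for I, -0.10 for III, -0.22 for IV and -0.14 for V.

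NDUFB6, an accessory subunit of complex I (chromosome 9, 32552997 to 32573160, minus strand), was at 6.25, 9.81 and 5.84 CPM in control nuclei and 4.03, 4.17 and 4.36 after RNAi. Its groups did not overlap, though control replicate 2 was well above the others, and the log2 fold change was -0.81 (SE 0.23, adjusted p = 0.0769). NDUFA4, a subunit first placed in complex I and now in complex IV, was at 42.4, 79.2 and 56.4 against 32.8, 39.5 and 41.4 (-0.65, SE 0.20, adjusted p = 0.0993). Its lowest control sample was just above its highest RNAi sample. The calls rested on single libraries: 0 members were lower without control nuclear replicate 2, without control nuclear replicate 3, or without any single RNAi nuclear replicate, 9 were lower without control nuclear replicate 1, and 1 was lower without either RNAi cytoplasmic replicate. With library size as the only scaling 0 members were lower. With the average transcript length in the offset both calls were lost and 3 other members, ATP5MK, NDUFS1 and NDUFS8, were lower.

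A further 6 members passed the adjusted p with a smaller change. At any size of change 8 of the 78 members passed it, as did 1307 of the 16181 genes tested. ATP5PO, the OSCP subunit that joins the stalk to the head of the synthase, was at 296, 301 and 267 CPM in control nuclei and 206, 226 and 212 after RNAi (log2 fold change -0.43, SE 0.09, adjusted p = 0.0332). NDUFS8, an iron-sulfur core subunit, was at 258, 320 and 299 against 205, 223 and 217 (-0.44, SE 0.10, adjusted p = 0.0439). Both groups were separate in both genes. NDUFB9 (-0.40), NDUFS1 (-0.38) and NDUFV2 (-0.46) were the others on the lower side. UQCRFS1 (chromosome 19, 29696227 to 29704058, minus strand) was on the higher side, at 95.1, 110 and 96.0 CPM in control and 125, 142 and 148 after RNAi (0.46, SE 0.12, adjusted p = 0.0609).

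In the cytoplasm, 2 RNAi samples were compared with 1 control sample. Here 8 members (10.3%) were called lower, against 14.2% of all genes tested, and 3 (3.85%) were called higher, against 10.4%. The median of the members was -0.04 and that of all genes 0.01. By complex the medians were -0.07 for I, 0.22 for III, 0.16 for IV and -0.23 for V. With the GC trend added to the offset of the fit, 0 members were lower and 4 were higher.

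The lower members were NDUFS1 of complex I, UQCRB of complex III, COX7A2 and COX7B of complex IV, and ATP5F1C, ATP5MC3, ATP5MK and ATP5PB of complex V. NDUFS1 was at 64.2 CPM in the control cytoplasm and 42.8 and 36.7 after RNAi (-0.69, SE 0.14, adjusted p = 0.00904). ATP5PB was at 113 against 80.1 and 74.0 (-0.56, SE 0.14, adjusted p = 0.0184), and ATP5MC3 at 661 against 400 and 497 (-0.56, SE 0.14, adjusted p = 0.0185). UQCRB was at 13.1 against 6.23 and 7.76 (-0.91, SE 0.21, adjusted p = 0.0138). In each the single control sample was above both RNAi samples. COX7B, a small subunit of complex IV, was at 3.35 against 1.01 and 1.53 (-1.42, SE 0.54), and COX7A2 at 1.46 against 0.0 and 0.656 (-2.35, SE 0.90). In these samples 3 counts equal 0.19 to 0.272 CPM before the TMM scaling. The higher members were UQCRFS1, ATP5MF-PTCD1 and NDUFA4L2. UQCRFS1 was at 160 against 207 and 271 CPM (0.58, SE 0.18, adjusted p = 0.0475). NDUFA4L2, the paralog of NDUFA4, was at 2.31 against 5.92 and 4.37 (1.16, SE 0.37, adjusted p = 0.0489). ATP5MF-PTCD1, a readthrough of ATP5MF and its neighbour, was at 9.07 against 17.8 and 17.2 (0.95, SE 0.18, adjusted p = 0.00636); it shares exons with its parts, so the assignment of its reads is uncertain. Without RNAi cytoplasmic replicate 1 there were 4 lower and 5 higher members.

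UQCRFS1 was above control in every RNAi sample of both fractions; its nuclear change passed the adjusted p without reaching the size limit. With the GC trend in the fit its cytoplasmic change was 0.95, and 5 of 23 alternatives in the cytoplasm lost the call.

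**Figure D3:**
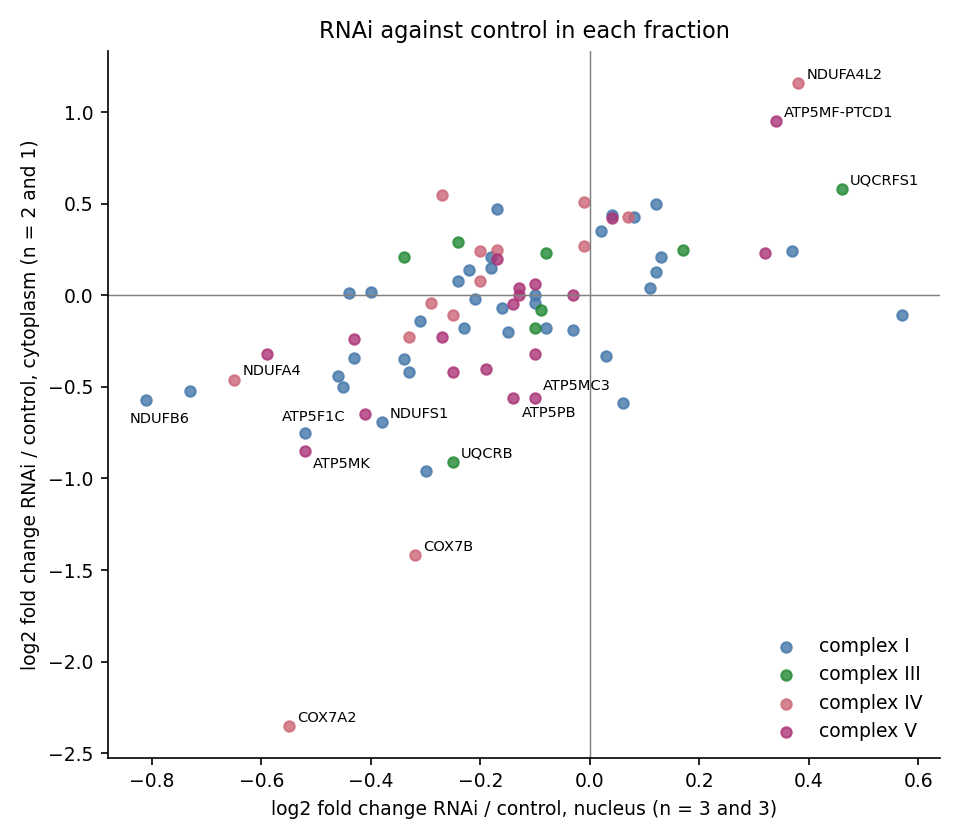
Log2 fold change of RNAi over control in the nucleus (x axis, n = 3 and 3) and in the cytoplasm (y axis, n = 2 and 1) for the 78 tested members, coloured by complex, with members called in either fraction named. UQCRFS1, ATP5MF-PTCD1 and NDUFA4L2 lie at the upper right and COX7A2, with a cytoplasmic value of -2.35, at the bottom.

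GC content moved with the cytoplasmic comparison. Across the 78 members the Spearman correlation of the cytoplasmic change with transcript GC was 0.60, and across all genes tested 0.51; in the nucleus the values were 0.30 and -0.03. These genes share the same libraries, so no test is attached. The 39 members with GC under the member median of 50.6% had a median cytoplasmic change of -0.32 and the 39 at or above it 0.15. Genes with under 40% GC were, in the median, 0.45 above their mean over samples in the control cytoplasmic sample and at -0.35 and -0.45 in the RNAi cytoplasmic samples, on the log2 scale, while nuclear samples were between 0.0 and 0.12. The part of this trend in the members' changes was not tested.

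**Figure D4:**
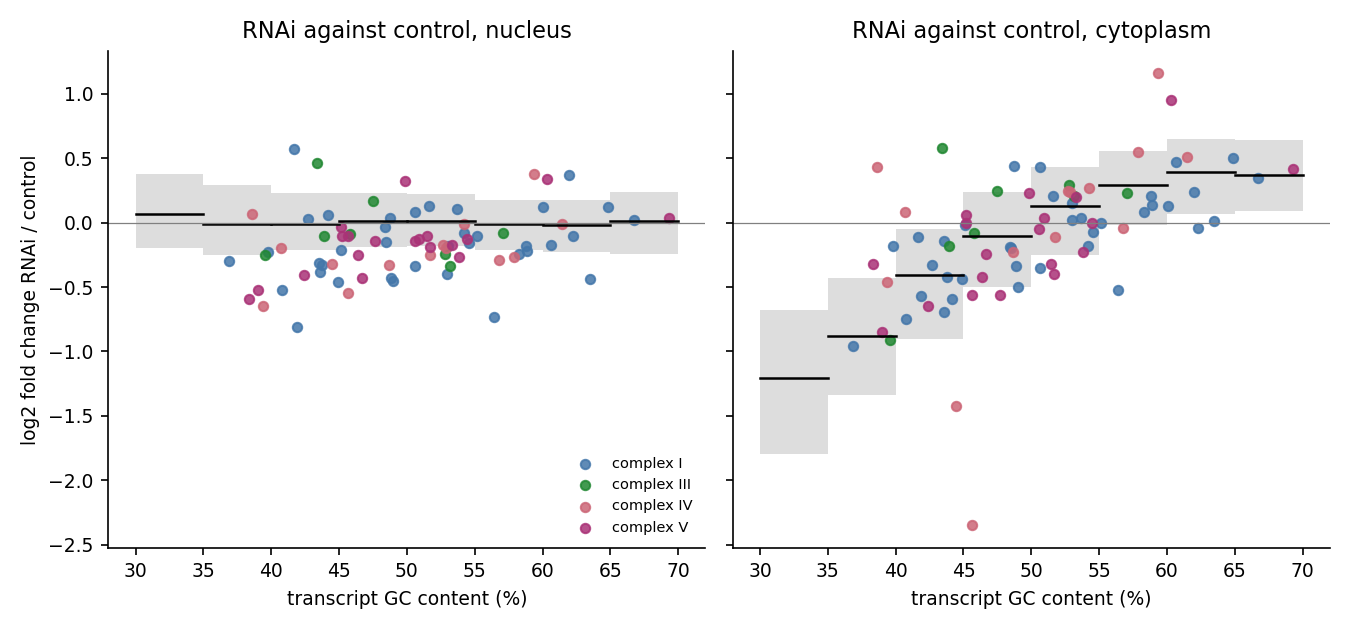
Log2 fold change of RNAi over control against the GC content of the most abundant transcript (%), in the nucleus (left) and the cytoplasm (right). Points are the 78 members coloured by complex; black bars and grey boxes are the median and quartiles of all genes tested in GC bins, which climb in the cytoplasm from -0.88 at 35% to 40% GC to 0.39 at 60% to 65%, and stay within 0.07 of 0 in the nucleus.

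The change of the nuclear to cytoplasmic ratio under RNAi, the comparison the study was built for, was then fitted as an interaction. No member had a raised ratio, where 10.4% of all genes tested did, and 3 (3.85%) had a lowered one, where 7.87% did. The member median was -0.11 and that of all genes -0.05. The median SE of a member was 0.26. In the edgeR fit 11 of the 78 had an unadjusted p under 0.05, as did 4535 of the 16181 genes tested. DESeq2's Wald test called 2 lowered (COX8A and NDUFV1) and 0 raised.

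COX8A (chromosome 11, 63742092 to 63744015, plus strand) was at 727, 1052 and 887 CPM in control nuclei and 712, 712 and 786 after RNAi, and at 572 in control cytoplasm and 711 and 960 after RNAi. The nuclear groups overlapped, while both RNAi cytoplasmic samples were above the control. The log2 change of its ratio was -0.82 (SE 0.27, adjusted p = 0.076). NDUFV1 (chromosome 11, 67373124 to 67380025, plus strand) was at 111, 158 and 124 against 112, 117 and 121 in nuclei, and at 107 against 140 and 156 in cytoplasm. Again the nuclear groups overlapped and the cytoplasmic ones did not. The change was -0.64 (SE 0.23, adjusted p = 0.0966), and that of ATP5MF-PTCD1 was -0.60 (SE 0.22, adjusted p = 0.0967), with 9.27 to 9.56 CPM in control nuclei and 11.2 to 12.9 after RNAi. All 3 calls were lost without control nuclear replicate 3, without any single RNAi nuclear replicate and without RNAi cytoplasmic replicate 2. The last gave 3 raised members, ATP5MC3, COX7A2 and UQCRB. COX8A was the only lowered member with DESeq2 size factors, while with library size as the only scaling none was lowered and ATP5MC3, ATP5PB and UQCRB were raised; that scaling moved the median of all genes to 0.23 and of the members to 0.17. With the GC trend in the fit the 1 lowered member was COX7A2L.

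Transcript classes differed between the fractions. In the annotation some transcripts of a gene are classed as retained_intron, meaning that they keep an intron and code for no protein. These took 3.78% to 5.2% of the members' TPM in nuclei and 4.0% to 6.05% in cytoplasm, so the summed share did not part the fractions. Per gene it did: of 48 members with such TPM, 27 (56.2%) had a larger share in every nuclear sample than in any cytoplasmic one, against 41.2% of protein-coding genes, and 0 had the reverse, against 1.12%. NDUFV1 held 21.9% to 26.1% of its TPM there in control nuclei, 28.5% to 30.9% in RNAi nuclei, 3.87% in control cytoplasm and 1.23% and 1.32% in RNAi cytoplasm. NDUFA10, an accessory complex I subunit, was at 20.3% to 27.6% in nuclei and 4.99% to 6.76% in cytoplasm. ATP5MC2 was at 11.0% to 19.4% against 0.277% to 0.467%, and ATP5PD, the d subunit of the stalk, at 9.87% to 17.1% against 0.259% to 0.582%. ATP5MC3, NDUFA4 and UQCRC1 differed from these, with 48.4% to 69.0%, 38% to 70.3% and 66.2% to 73.3% over the 9 samples and fractions that overlapped.

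Within the nucleus, 11 of the 48 members (22.9%) had a larger retained_intron share in every RNAi sample than in any control sample, against 9.46% of protein-coding genes, and 1, ATP5PF, had a smaller one, against 4.07%. The 11 were NDUFB2, NDUFB8 and NDUFV1 of complex I, UQCRC2 of complex III, COX4I1, COX5B and NDUFA4 of complex IV, and ATP5F1A, ATP5F1C, ATP5MC1 and ATP5MC3 of complex V. ATP5MC3 was at 59.1%, 48.4% and 49.5% in control and 65.2%, 60.5% and 62.5% after RNAi. Others of the 11 held far smaller shares. ATP5F1C was at 0.383% to 0.673% in control nuclei and 0.753% to 0.942% after RNAi. For ATP5MC1 the values were 0.481% to 0.569% and 0.913% to 0.941%. ATP5PF was at 0.149% to 0.269% in control nuclei and 0.0% after RNAi. These shares rest on salmon's division of reads among overlapping transcripts, and no test was run on them. When only reads of protein-coding transcripts were counted, 18 members were lower in the nucleus after RNAi in place of 36, and the change of the ratio was called for none.

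**Figure D5:**
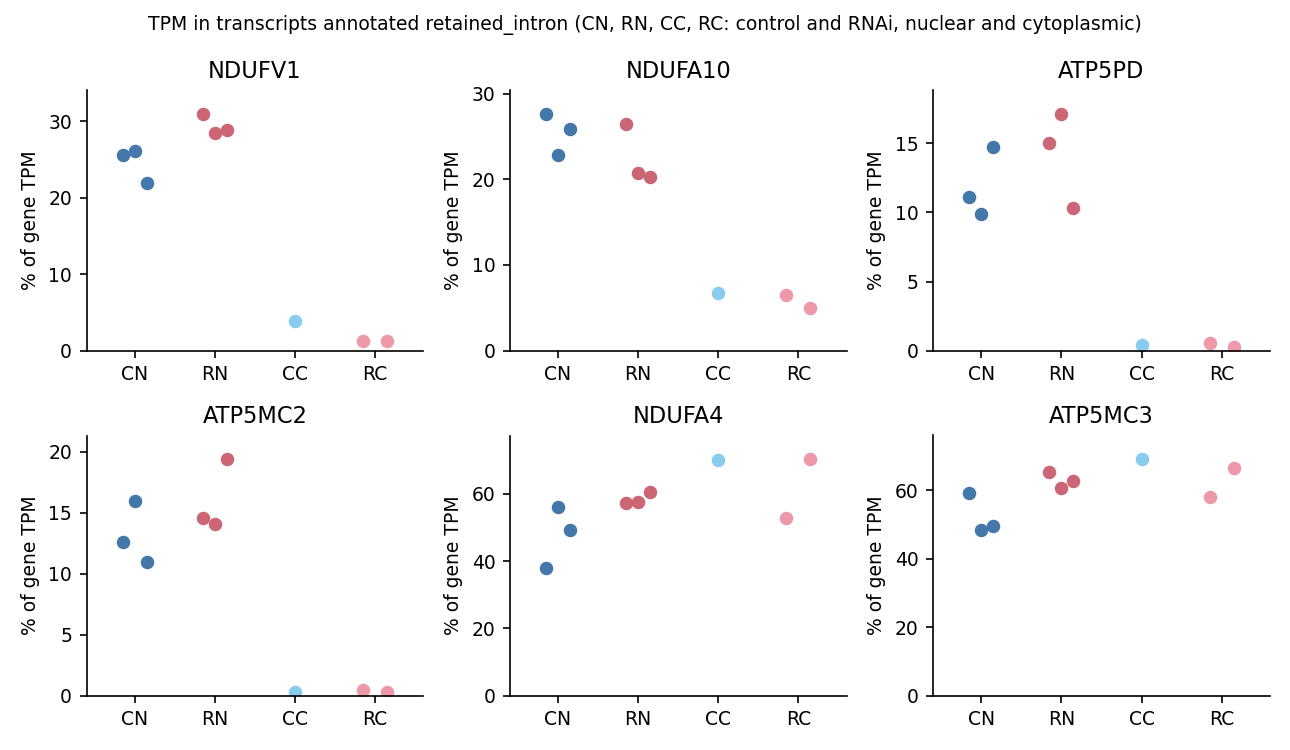
Percent of a gene's TPM in transcripts annotated retained_intron (y axis from 0) in each of the 9 samples for 6 members. CN and RN are control and RNAi nuclear samples, CC and RC control and RNAi cytoplasmic ones; NDUFV1, NDUFA10, ATP5PD and ATP5MC2 part by fraction, while NDUFA4 and ATP5MC3 do not.

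The genes that regulate the respiratory chain were measured beside it. GABPA, the DNA-binding ETS subunit of nuclear respiratory factor 2, was at 15.5 CPM in the control cytoplasm and 3.82 and 3.17 after RNAi, and at 5.45 to 7.28 in control nuclei and 4.82 to 7.30 in RNAi nuclei. The cytoplasmic samples parted and the nuclear ones overlapped, with log2 fold changes of -2.13 in cytoplasm (SE 0.28, adjusted p = 0.00142) and 2.03 for the ratio (SE 0.34, adjusted p = 0.00711). Its partner GABPB1 was at 13.4 against 7.56 and 6.56 in cytoplasm (-0.92), and TFAM, which packages and transcribes mitochondrial DNA, at 17.4 against 5.92 and 6.89 (-1.45). Their ratios changed by 0.9 and 1.41. Over the 10 regulators the median change was -0.36 in cytoplasm, against 0.01 over all genes tested. For the ratio it was 0.57 against -0.05. These values rest on 1 control cytoplasmic sample, and the part of the GC trend in them was not tested. PPRC1, a coactivator of the same family as PGC-1, was at 355 against 606 and 622 (0.79, SE 0.12, adjusted p = 0.00246). In the nucleus none of the 10 regulators was called, although PPRC1 rose from 454 to 463 CPM in control to 612 to 652 after RNAi (0.47, SE 0.08, adjusted p = 0.0175), under the size limit. NRF1 itself was at 12.3 to 19.6 CPM in nuclei and 13.8 to 22.5 in cytoplasm and was called in no comparison. SDHD of complex II (-0.75) and CYCS (-0.95) were also lower in the RNAi cytoplasm, while the 13 mitochondrially encoded mRNAs had no call between RNAi and control in either fraction.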

How the data were processed

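The authors trimmed reads with cutadapt and quantified transcripts with salmon on hg19 Ensembl transcripts; the salmon version is not given in the sources used here. The deposited files hold, per transcript and sample, the estimated counts and the TPM that salmon gave the authors. Of 215170 transcripts 183122 (85.1%) were matched to genes, with 83.07% to 88.31% of the counts. Gene values were the rounded sums of the estimated counts of their transcripts, genes with 10 or more counts in 3 or more samples were kept, and edgeR's quasi-likelihood test (edgeR 4.0.16, R 4.3.3) with TMM scaling and Benjamini-Hochberg adjustment was fitted over all 9 samples and 4 groups (5 residual degrees of freedom, common biological coefficient of variation 0.1381). The scripts were tested on simulated data. A count of 3 equals 0.19 to 0.303 CPM before the TMM scaling, which the printed CPM include. This floor covers counting error only. Alternatives used limma 3.58.1 on log2 TPM, DESeq2 1.42.0, other scalings and filters, the replicate number as a block, and each replicate left out; the GC trend and the protein-coding transcripts were chosen after seeing the data. Named members were, per comparison, up to 6 called on each side by size, the highest and lowest by level, paralog groups, and catalytic or electron-carrying subunits; further members are named as examples chosen after their values were seen. The members and lists were chosen with earlier results of these data known. The single control cytoplasmic sample limits the precision of every comparison that uses it. Values of 2 genes are not reported here.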

Additional observations from a re-analysis of the deposited data

Results flagged for a closer look

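For 3 members the effect of RNAi differed between nucleus and cytoplasm by the test of the difference itself, edgeR's quasi-likelihood test of the interaction with Benjamini-Hochberg adjustment. COX8A had a log2 difference of -0.82 (adjusted p = 0.076), NDUFV1 of -0.64 (adjusted p = 0.0966) and ATP5MF-PTCD1 of -0.6 (adjusted p = 0.0967). Over 23 alternatives the values ran from -1.02 to -0.54, from -0.75 to -0.20 and from -0.66 to -0.24, and the call was kept in 12, 5 and 3 of them. The spread of the single control cytoplasmic sample enters all 3.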

How the results depend on the processing

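Among alternative values for single members 3932 kept their direction and side of the threshold, 231 lost the call, 95 gained one, 352 moved without a call and 7 turned their sign. Among counts and medians 246 stayed close and 89 moved. For the change of the ratio, lowered members numbered 1 with DESeq2 size factors, with at least 10 counts in every sample, without mitochondrially encoded genes, with protein-coding genes only and with the GC trend, 0 with library size only, limma on log2(TPM + 1) or log2(TPM + 0.1), protein-coding transcripts only or an adjusted p under 0.05, and 11 with the replicate block. Raised members numbered 3 with library size only and with at least 10 counts in every sample, 2 with protein-coding genes only and with limma at 0.1, and 1 with limma at 1, the length offset and no size limit. The median became 0.17 with library size only and 0.17 and 0.19 with limma. In the nucleus, lower members numbered 1 (DESeq2 size factors, protein-coding genes or transcripts only, GC trend), 0 (library size only, both limma fits, adjusted p under 0.05), 5 (no filter), 7 (no size limit) and 3 (length offset, without NDUFB6 and NDUFA4), and higher ones 1 (at least 10 counts in every sample, protein-coding genes or transcripts only, no size limit). In the cytoplasm, higher members numbered 1 with library size only, 7 with the replicate block, 0 with both limma fits and 5 with no size limit. Lower ones numbered 13 (library size only), 4 (length offset, limma at 1, adjusted p under 0.05), 5 (replicate block), 3 (limma at 0.1) and 0 (GC trend), and the median was -0.3 with library size only and -0.31 and -0.33 with limma. For nucleus against cytoplasm after RNAi, lower members numbered 14 (library size only), 11 (both limma fits) and 18 (protein-coding transcripts only), and higher ones 3 (length offset, protein-coding transcripts only). The median was -0.22 with library size only, -0.34 with at least 10 counts in every sample, -0.15 in both limma fits and -0.32 with protein-coding transcripts only. In control, higher members numbered 5 (no filter, at least 10 counts in every sample, length offset, replicate block, no size limit) and lower ones 17 (limma at 0.1). The sign turned for ATP5MF-PTCD1 (0.32 with the length offset, 0.67 and 0.75 with limma), NDUFA4L2 (0.14, 0.51 and 0.59) and NDUFA5 (-0.18, protein-coding transcripts only), all for nucleus against cytoplasm after RNAi. Leaving out 1 replicate at a time gave, for the ratio, 0 to 3 raised and 0 to 3 lowered members and medians of -0.26 to 0.08; for the nucleus 0 to 1 higher, 0 to 9 lower and -0.26 to -0.07; for the cytoplasm 2 to 5, 4 to 11 and -0.27 to 0.1. For nucleus against cytoplasm it gave 4 to 5 higher, 24 to 45 lower and -0.6 to -0.3 after RNAi, and 3 to 5, 27 to 34 and -0.49 to -0.21 in control. The 5 higher came without control nuclear replicate 1. Same-numbered samples correlated at 0.0426 to 0.252 in their deviations from the group mean. Samples of different number were not compared in this way, so these values cannot show whether samples were paired. The main fit took no pairs, and the replicate block gives the values with them. The cause of these shifts was not tested.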
